A study of Mus musculus with 56 samples.

Results

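Zfp36, Zfp36l1, Zfp36l2, and Zc3h12a are 4 genes whose proteins act in the decay of cytokine mRNAs. They were followed through the ChIP-seq peaks of mouse BMDMs that carry their names. The members were found by the Gene Name column, which holds the gene with the nearest transcription start site, in all 56 lists of the series. They account for 1924 of 1610519 peaks and for 4 of 20352 gene names. A peak far from the gene is therefore a peak nearest to its start site, and whether it acts on the gene was not measured.

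Macrophages that sense bacterial LPS make inflammatory cytokines from mRNAs that are built to be short-lived. Zfp36 encodes tristetraprolin, a zinc finger protein that binds AU-rich elements in the tails of such mRNAs and brings the CCR4-NOT complex, which removes the poly(A) tail, and Zfp36l1 and Zfp36l2 encode close relatives that bind the same elements. Zc3h12a encodes Regnase-1, an endonuclease that cuts stem-loops in the tails of an overlapping set of mRNAs.

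BMDMs are macrophages grown from bone marrow, here for 6 days with L929 supernatant, a source of M-CSF, from wild-type mice of 8 to 12 weeks. In the 1 hr experiment, untreated cells (ctrl) were compared with cells given IL-4 (20 ng/ml, 1 hr) for RNAPII-pS5 and RNAPII-pS2 (RNA polymerase II phosphorylated at serine 5 or serine 2 of its tail repeat), H3K27Ac (an acetylated histone of active enhancers and promoters), p300 (an acetyltransferase), PU.1 (a macrophage transcription factor), and the histone deacetylases HDAC1, HDAC2, and HDAC3. In the pretreatment experiment, RNAPII-pS5, RNAPII-pS2, and p65 (a subunit of NF-κB, which LPS sends to the nucleus) were measured in cells left untreated (ctrl/ctrl), pretreated with IL-4 (20 ng/ml, 24 hr) alone (IL-4 PT/ctrl), given LPS (100 ng/ml, 1 hr) alone (ctrl/LPS), or given LPS after the pretreatment (IL-4 PT/LPS). Each of the 28 groups had 2 samples. In the 1 hr RNAPII-pS2 lists, the peak identifiers of ctrl lists spell IL-4 and those of IL-4 lists spell ctrl, and the groups follow the labels. Should the identifiers be right, the sign of every change in these lists would turn.

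The lists held 8440 to 71027 peaks, and their number stands in for depth, which is unknown. Untreated replicate 1 of p300 had 44787 peaks, the fewest of that antibody, and p65 had 9556 to 38955 peaks across its lists. A peak score is a −log10 p- or q-value, except for H3K27Ac, where it is a signal of normalized tags. The summed score of a gene is the sum over its peaks in a sample. Of the 9 macrophage symbols looked up, 7 had an RNAPII-pS5 peak, with summed scores of 515 to 537 in ctrl/ctrl and 274 to 331 in ctrl/LPS. In the pretreated groups these sums were 343.8 to 369.4 (IL-4 PT/ctrl) and 232.5 to 249.4 (IL-4 PT/LPS). The 3 fibroblast markers had none in any group, and 1 of 3 T cell, 1 of 3 B cell, 1 of 5 neutrophil and progenitor, 0 of 3 mast cell and basophil, and 2 of 3 erythroid markers had a peak in ctrl/ctrl. The B cell markers had summed scores of 35.4 to 50.6 in ctrl/ctrl and 73.8 to 79.0 in IL-4 PT/ctrl. They had 48.3 to 50.5 in ctrl/LPS and 49.4 to 50.8 in IL-4 PT/LPS, with a peak at 3 of 3 symbols in both LPS groups. A mast cell and basophil marker had a peak in IL-4 PT/ctrl (up to 6.8). The erythroid markers had summed scores of 37.5 to 42.4 in ctrl/ctrl and 0.0 to 11.3 in ctrl/LPS, and the part of these marker values in the results below was not tested. The cultures are bulk samples, so a peak in fewer cells and a weaker peak in every cell cannot be told apart.

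The 4 genes differed in how far their peaks spread. Zfp36 had 99 peaks at 5 places within 4.1 kb upstream and 3.2 kb downstream of its start site. Zc3h12a had 382 peaks at 18 places, of which 241 were intergenic and 114 lay in its own introns. Zfp36l1 had 925 peaks at 69 places that reached 402 kb past its start site, and 238 of its 261 intron peaks lay inside the neighbouring gene Rad51b. Zfp36l2 had 518 peaks at 27 places, and 177 of its 198 intron peaks lay inside Thada, upstream of it.

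Zc3h12a, Zfp36l1, and Zfp36l2 had a peak in all 56 lists, and Zfp36 had 1 in 47. The place shared by most lists was 17.5 kb upstream of Zc3h12a, in all 56. All 9 antibodies had a peak at 3 places of Zc3h12a, 9 of Zfp36l1, 2 of Zfp36l2, and 0 of Zfp36. None of the H3K27Ac lists named a region after Zfp36. The nearest regions lay 13.5 to 13.8 kb from its start site, carried the names Paf1 and Med29, and had a signal of 53.1 to 63.2. Region starts lay at least 2531 bp apart in these lists. Zc3h12a and Zfp36l2 also had no region within 1000 bp of their start site in any H3K27Ac list.

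LPS split the family at RNAPII-pS5: Zfp36 rose, and Zfp36l1 and Zfp36l2 fell. Changes are given on the log2 scale after each sample was centred on its median gene, and they were tested with limma over all 12477 genes, with a call at an adjusted p of at most 0.05. Of the 4 genes, 3 were called between ctrl/LPS and ctrl/ctrl, against 28.4% of all genes tested. The comparisons of ctrl/LPS and of IL-4 PT/ctrl with ctrl/ctrl share the ctrl/ctrl samples.

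Zfp36 had summed RNAPII-pS5 scores of 47.3 and 46.3 in ctrl/ctrl, 34.5 and 36.0 in IL-4 PT/ctrl, 55.9 and 64.2 in ctrl/LPS, and 49.2 and 47.4 in IL-4 PT/LPS. The ctrl/LPS samples were above all others, and the IL-4 PT/ctrl samples were below all others. Zfp36 rose by 0.68 ± 0.14 (SE, n = 2) on the log2 scale after LPS alone (adjusted p = 0.0133). It rose by 0.57 after LPS in pretreated cells (adjusted p = 0.0285). Without centring the change after LPS alone was 0.36 (adjusted p = 0.0956).

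Zfp36l2 had summed RNAPII-pS5 scores of 118 and 93.7 in ctrl/ctrl, 88.7 and 92.9 in IL-4 PT/ctrl, 13.4 and 18.8 in ctrl/LPS, and 30.6 and 38.7 in IL-4 PT/LPS. The samples with LPS lay below all samples without it, and ctrl/LPS lay below IL-4 PT/LPS. Zfp36l2 fell by 2.40 ± 0.20 (SE, n = 2) on the log2 scale after LPS alone (adjusted p = 0.00182), which was called in all 18 alternatives tried. It fell by 1.29 in pretreated cells (adjusted p = 0.0063). In IL-4 PT/LPS it was 0.83 ± 0.20 higher than in ctrl/LPS (adjusted p = 0.041). The test of whether its LPS change differed with pretreatment missed the threshold (1.12 ± 0.28, adjusted p = 0.0674).

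Zfp36l1 had summed RNAPII-pS5 scores of 128 and 135 in ctrl/ctrl, 180 and 205 in IL-4 PT/ctrl, 66.2 and 62.8 in ctrl/LPS, and 92.4 and 93.5 in IL-4 PT/LPS. The 4 groups did not overlap. Zfp36l1 fell by 0.70 ± 0.11 (SE, n = 2) on the log2 scale after LPS alone (adjusted p = 0.00526) and by 0.93 in pretreated cells (adjusted p = 0.00387). It rose by 0.47 with the pretreatment alone (adjusted p = 0.0363), and 1 of 4 genes was called there against 9.97% of all genes. That call was kept in 4 of 18 alternatives, and it was lost when any 1 of the 8 samples was left out, with a replicate block, and with quantile normalization.

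Zc3h12a had summed RNAPII-pS5 scores of 61.9 and 41.6 in ctrl/ctrl, 64.0 and 78.9 in IL-4 PT/ctrl, 58.9 and 62.7 in ctrl/LPS, and 85.4 and 67.1 in IL-4 PT/LPS. The groups overlapped, and no RNAPII-pS5 change of Zc3h12a was called. After LPS alone its change was 0.58 ± 0.20 (SE, adjusted p = 0.0708).

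**Figure D1:**
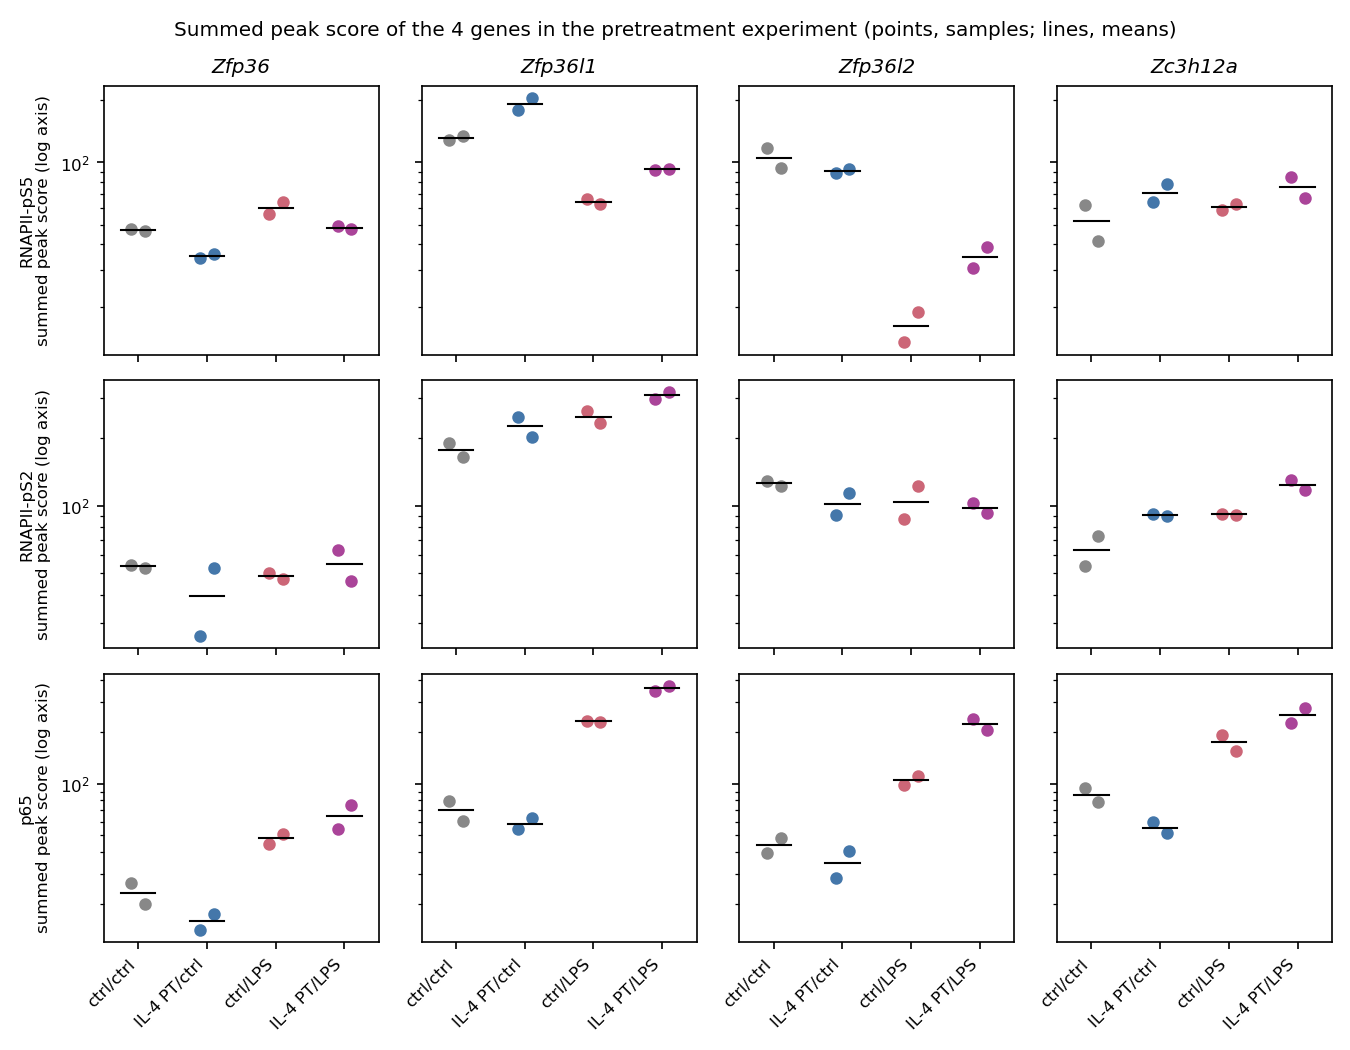
Summed peak score (log axis, no unit) of each gene for RNAPII-pS5, RNAPII-pS2, and p65 in the 4 groups of the pretreatment experiment, with points for samples and lines for group means (n = 2). For RNAPII-pS5, the ctrl/LPS samples of Zfp36 (55.9 and 64.2) are the highest and those of Zfp36l2 (13.4 and 18.8) the lowest of their gene, and for p65 all 4 genes have higher uncentred scores with LPS than without.

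Between IL-4 PT/LPS and ctrl/LPS, 2 of 4 genes were called, against 12.3% of all genes: Zfp36l2, as above, and Zfp36, which was 0.60 ± 0.14 (SE) lower (adjusted p = 0.039). Leaving out any of the 8 samples left 0 genes called in this comparison, and so did a replicate block (adjusted p = 0.064 for Zfp36 and 0.056 for Zfp36l2). For LPS in pretreated cells, 3 of 4 genes were called, against 22.9% of all genes. For the difference between the LPS changes with and without pretreatment, limma called 0 of 4 genes, against 5.62% of all genes, and 1 had an unadjusted p of at most 0.05.

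Over the Zfp36 gene body, RNAPII-pS5 was listed as 1 unbroken peak in the 6 stimulated samples of the pretreatment experiment and as 2 separate peaks in both ctrl/ctrl samples. The untreated samples of the 1 hr experiment had 1 unbroken peak as well, of 3622 and 3610 bp. In ctrl/ctrl, peaks of 396 and 498 bp at the start (scores of 21.8 and 20.5) stood apart from peaks of 2797 and 2705 bp over the 3′ part of the gene (25.5 and 25.8). The single peak was 3564 and 3506 bp wide in IL-4 PT/ctrl, 4020 and 4061 bp in ctrl/LPS, and 3528 and 3515 bp in IL-4 PT/LPS. Both ctrl/LPS peaks were wider than those of the other 3 groups.

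As 1 site with its highest score, this gene body scored 25.5 and 25.8 in ctrl/ctrl, 34.5 and 36.0 in IL-4 PT/ctrl, 55.9 and 64.2 in ctrl/LPS, and 49.2 and 47.4 in IL-4 PT/LPS. Here all 4 groups were apart, in the order ctrl/ctrl, IL-4 PT/ctrl, IL-4 PT/LPS, ctrl/LPS. The site rose by 1.41 ± 0.10 (SE, n = 2) on the log2 scale after LPS (adjusted p = 0.00153) and by 0.44 with pretreatment alone (adjusted p = 0.0258), and it was 0.50 lower in IL-4 PT/LPS than in ctrl/LPS (adjusted p = 0.0198). Its LPS change was smaller with pretreatment by 0.95 ± 0.13 (adjusted p = 0.00847). With the floor for missing peaks 4 times as high, the adjusted p was 0.165 with pretreatment alone and 0.0836 for the difference. The summed score counts the start peak of ctrl/ctrl as well, and there the pretreatment change had the other sign (-0.48, adjusted p = 0.0825) and the difference between LPS changes was -0.11 ± 0.20 (adjusted p = 0.779), or 0.10 without centring.

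RNAPII-pS2, the form of the elongating polymerase, was listed as 3 peaks over Zfp36 in both ctrl/ctrl samples and as 1 or 2 in the others. As 1 site the gene body scored 23.8 and 24.1 in ctrl/ctrl, 26.3 and 40.9 in IL-4 PT/ctrl, 49.9 and 47.1 in ctrl/LPS, and 49.9 and 46.2 in IL-4 PT/LPS. The highest score rose by 0.83 ± 0.18 (SE) on the log2 scale after LPS alone (adjusted p = 0.0142). The summed score, which counts all 3 ctrl/ctrl peaks, was 54.6 and 52.6 in ctrl/ctrl and 49.9 and 47.1 in ctrl/LPS, a change of the other sign that was not called (-0.37 ± 0.29, adjusted p = 0.362).

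At Zfp36l1 and Zfp36l2 the sites that fell after LPS included the 3′ end of the gene or a site just past it. The RNAPII-pS5 peak 6.1 kb downstream of the Zfp36l1 start, at its transcription termination site (TTS), scored 32.7 and 23.3 in ctrl/ctrl and 31.6 and 25.5 in IL-4 PT/ctrl. It was listed in neither ctrl/LPS sample and in 1 IL-4 PT/LPS sample at 5.34 (ctrl/LPS against ctrl/ctrl, adjusted p = 0.00473). The RNAPII-pS2 peak at the same TTS went from 13.4 and 17.2 in ctrl/ctrl to 3.59 and 3.5 in ctrl/LPS, a fall by 2.29 ± 0.30 on the log2 scale (adjusted p = 0.00196). The summed RNAPII-pS2 score of Zfp36l1 did not fall, with 189 and 164 in ctrl/ctrl and 262 and 233 in ctrl/LPS. Its change was 0.27 ± 0.14 (adjusted p = 0.188), or 0.49 without centring (adjusted p = 0.0292). Of its 23 RNAPII-pS2 sites, 6 were called higher and 2 lower after LPS alone, beside 18.4% and 15.9% of all sites. The intronic peak 0.8 kb downstream of the Zfp36l1 start held RNAPII-pS5 scores of 42.8 and 48.4 in ctrl/ctrl and 36.4 and 21.5 in ctrl/LPS, and was not called (-0.52, adjusted p = 0.242).

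The RNAPII-pS5 peak 5.4 kb downstream of the Zfp36l2 start scored 34.1 and 26.4 in ctrl/ctrl, 27.8 and 25.9 in IL-4 PT/ctrl, 6.42 and 4.11 in ctrl/LPS, and 7.22 and 5.24 in IL-4 PT/LPS. It fell by 2.36 ± 0.32 (SE) on the log2 scale after LPS alone (adjusted p = 0.00328). At the start itself (0.3 kb downstream) the scores were 17.6 and 14.1 in ctrl/ctrl, no peak and 4.29 in ctrl/LPS, and 9.05 and 5.82 in IL-4 PT/LPS (ctrl/LPS against ctrl/ctrl, adjusted p = 0.0158). RNAPII-pS2 peaks in the exon and 3′ UTR of Zfp36l2 were present in all 4 samples without LPS (5.11 to 9.12) and in none of the 4 with LPS. The samples with and without LPS did not overlap at any of these sites.

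Zc3h12a held its highest RNAPII-pS5 score past its 3′ end, 10.7 kb downstream of the start: 34.3 and 25.8 in ctrl/ctrl, 46.1 and 42.7 in IL-4 PT/ctrl, 35.8 and 33.4 in ctrl/LPS, and 44.1 and 36.8 in IL-4 PT/LPS. The RNAPII-pS2 peak there scored 22.1 and 22.8, 39.4 and 35.1, 24.5 and 20.3, and 52.8 and 44.5 in the same order. Both pretreated groups lay above both others at RNAPII-pS2. The change was 0.78 ± 0.18 (SE) on the log2 scale in cells without LPS (adjusted p = 0.0238) and 1.18 ± 0.18 in cells with LPS (adjusted p = 0.00572).

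Across the sites of the 4 genes, RNAPII-pS5 was called after LPS alone at 14 of 36 (4 higher and 10 lower, against 30.4% of all sites), with pretreatment alone at 10 (16.8% of all sites), between IL-4 PT/LPS and ctrl/LPS at 3 (14.4%), and in the difference between LPS changes at 8 (17.7%). RNAPII-pS2 was called at 18 of 46 sites after LPS alone (34.3% of all sites), at 11 with pretreatment alone (22.6%), at 9 between IL-4 PT/LPS and ctrl/LPS (17.7%), and at 10 for the difference (20.2%). For the summed RNAPII-pS2 score, limma called 0 of 4 genes in each of these comparisons, while 32.6%, 19.2%, 11.5%, and 5.33% of all genes were called. At an unadjusted p of at most 0.05, 1 gene passed after LPS alone, 2 with pretreatment alone, 0 between the LPS groups, and 0 for the difference.

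The summed RNAPII-pS2 scores of Zc3h12a were 53.9 and 73.0 in ctrl/ctrl, 91.5 and 89.4 in IL-4 PT/ctrl, 91.9 and 90.9 in ctrl/LPS, and 129 and 118 in IL-4 PT/LPS. Those of Zfp36l2 were 128 and 123, 90.6 and 113, 86.7 and 122, and 102 and 92.9 in the same order. Neither gene passed the threshold, although the ctrl/ctrl samples of Zc3h12a were the lowest and those of Zfp36l2 the highest of their gene.

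The uncentred p65 scores of all 4 genes were higher in every sample with LPS than in any without, as they were for 54.1% of all genes tested. The median gene rose by 1.64 on the log2 scale (3.12-fold) between ctrl/ctrl and ctrl/LPS. Zfp36 had summed p65 scores of 26.5 and 20.0 in ctrl/ctrl, 14.1 and 17.5 in IL-4 PT/ctrl, 44.9 and 51.2 in ctrl/LPS, and 54.6 and 75.0 in IL-4 PT/LPS. Zc3h12a had 94.3 and 78.3, 59.6 and 51.4, 192 and 156, and 226 and 276 in the same order. Relative to the median gene, Zc3h12a fell by 0.63 ± 0.16 (SE) on the log2 scale after LPS alone (adjusted p = 0.0276), while without centring it rose by 1.01 (adjusted p = 0.0042).

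Zfp36l1 had summed p65 scores of 78.9 and 60.9 in ctrl/ctrl, 54.2 and 62.8 in IL-4 PT/ctrl, 232 and 228 in ctrl/LPS, and 347 and 370 in IL-4 PT/LPS. Zfp36l2 had 39.5 and 48.2, 28.5 and 40.4, 98.5 and 111, and 238 and 206 in the same order. For all 4 genes both IL-4 PT/LPS samples lay above both ctrl/LPS samples, as they did for 57.7% of all genes tested. The median gene was also 0.50 higher on the log2 scale in IL-4 PT/LPS than in ctrl/LPS, and the changes relative to it ran from -0.09 (Zfp36) to 0.58 (Zfp36l2). After LPS alone 1 of 4 genes was called, against 29.8% of all genes. With limma, 0 of 4 were called with pretreatment alone (7.51% of all genes, 1 of the 4 at an unadjusted p of at most 0.05), 0 between the LPS groups (12.5%, 1 unadjusted), and 0 for the difference (6.6%, 0 unadjusted).

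Single p65 sites differed more than the sums. After LPS alone 19 of 50 sites were called, 14 higher and 5 lower, against 31.6% of all sites, and 3 of the 5 lower sites were also lower without centring. Between IL-4 PT/LPS and ctrl/LPS, 11 were called, 9 higher and 2 lower (30.9% of all sites). With pretreatment alone 6 were called, 3 higher and 3 lower (4.37% of all sites), of which 3 were left with a replicate block. For the difference between the LPS changes 6 were called (23.3% of all sites).

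Zc3h12a had p65 sites with different patterns within its own introns. The site 3.0 kb downstream of the start scored 65.4 and 52.3 in ctrl/ctrl, 14.6 and 21.2 in IL-4 PT/ctrl, 61.7 and 55.5 in ctrl/LPS, and 34.5 and 37.5 in IL-4 PT/LPS. Pretreated samples were below the others with and without LPS. The site fell by 1.54 ± 0.25 (SE) on the log2 scale with pretreatment alone (adjusted p = 0.0298), and it was 0.97 ± 0.25 lower in IL-4 PT/LPS than in ctrl/LPS (adjusted p = 0.0322). Its change after LPS was -1.04 with centring (adjusted p = 0.0187) and 0.00 without.

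The Zc3h12a p65 site 5.0 kb downstream, in the same gene, had no peak in ctrl/ctrl, 6.06 and no peak in IL-4 PT/ctrl, 30.8 and 29.1 in ctrl/LPS, and 49.6 and 53.7 in IL-4 PT/LPS (LPS alone, adjusted p = 0.00882). The site 3.8 kb upstream had no peak in ctrl/ctrl, 5.10 and 4.91 in IL-4 PT/ctrl, 16.9 and 9.33 in ctrl/LPS, and 21.4 and 27.6 in IL-4 PT/LPS. It was called higher after LPS alone (adjusted p = 0.00481) and with pretreatment alone (adjusted p = 0.0254), and both calls were lost with the higher floor (0.528 and 0.643). A site 50.2 kb upstream had a p65 peak in the IL-4 PT/LPS samples alone, at 7.94 and 18.8 (IL-4 PT/LPS against ctrl/LPS, adjusted p = 0.00242, and 0.0652 with the higher floor).

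Zfp36l2 held the highest p65 score of the 4 genes, inside Thada, 132.8 kb upstream of its start. It had no peak in ctrl/ctrl, 4.28 and no peak in IL-4 PT/ctrl, 30.7 and 21.8 in ctrl/LPS, and 75.3 and 77.2 in IL-4 PT/LPS. The site was called higher after LPS alone (adjusted p = 0.00587). RNAPII-pS5 had a peak at that place only in the IL-4 PT/LPS lists of the pretreatment experiment, at 6.83 and 8.27, and RNAPII-pS2 had 24.6 and 21.8 there, with 8.46 in 1 ctrl/LPS sample.

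The Zfp36l2 p65 site 103.5 kb upstream was listed in the IL-4 PT/LPS samples alone, at 24.9 and 37.5. It was called between the LPS groups (adjusted p = 0.000321) and in the difference between LPS changes (adjusted p = 0.00246). RNAPII-pS2 at this site had no peak in either group without pretreatment, 5.51 and 13.9 in IL-4 PT/ctrl, and 18.6 and 19.1 in IL-4 PT/LPS (with LPS, adjusted p = 0.00211, and without LPS, adjusted p = 0.00661 or 0.258 with the higher floor). Both the p65 and the RNAPII-pS2 peaks there were absent from every ctrl/LPS list. The p65 site nearest the Zfp36l2 start, 0.6 kb downstream, had 10.8 and 14.3 in ctrl/ctrl and 7.27 and 5.05 in ctrl/LPS, and it was called lower with centring (-2.08, adjusted p = 0.019) and had the same sign without (-1.04).

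**Figure D2:**
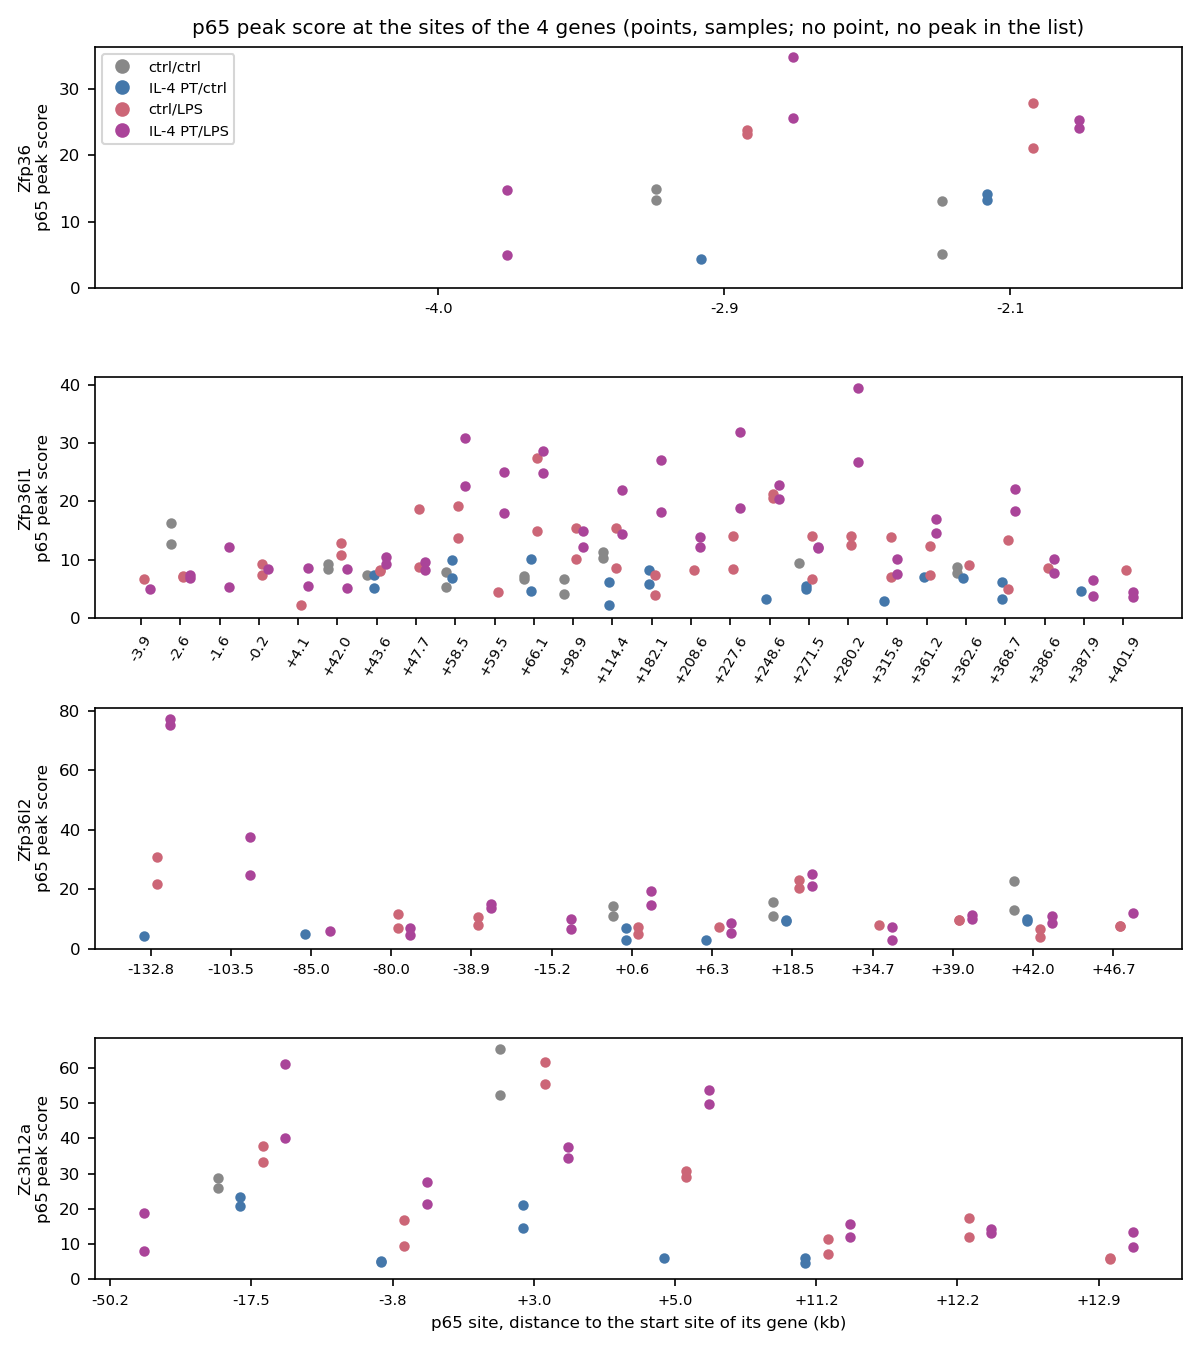
p65 peak score (no unit, linear axis) at every tested site of each gene, placed by distance to the start site in kb and not to scale between sites, with a point for each sample. Of the Zc3h12a sites, the one 3.0 kb downstream is lower in pretreated samples (14.6 to 37.5) than in the others (52.3 to 65.4), and the Zfp36l2 site 132.8 kb upstream reaches 75.3 and 77.2 in IL-4 PT/LPS.

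Zfp36 had 3 p65 sites, all upstream. The site at 2.1 kb scored 13.2 and 5.05 in ctrl/ctrl, 14.1 and 13.2 in IL-4 PT/ctrl, 21.1 and 27.9 in ctrl/LPS, and 24.1 and 25.4 in IL-4 PT/LPS. The site at 2.9 kb scored 13.3 and 14.9, no peak and 4.32, 23.8 and 23.2, and 25.6 and 34.8 in the same order. Both had higher uncentred scores in every LPS sample, and neither was called after LPS alone once the rise of the median site was removed. The site at 4.0 kb was listed in IL-4 PT/LPS alone, at 4.90 and 14.8 (adjusted p = 0.0126 against ctrl/LPS, and 0.38 with the higher floor).

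Zfp36l1 had 26 p65 sites, from 3.9 kb upstream to 401.9 kb downstream. The p65 site 280.2 kb downstream had no peak in ctrl/ctrl or IL-4 PT/ctrl, 12.6 and 14.04 in ctrl/LPS, and 39.4 and 26.7 in IL-4 PT/LPS, and it was 1.02 ± 0.27 (SE) higher on the log2 scale in the last group than in ctrl/LPS (adjusted p = 0.038). RNAPII-pS2 at the same place had no peak in ctrl/ctrl and 5.21 and 4.84 in IL-4 PT/ctrl, 19.7 and 14.5 in ctrl/LPS, and 31.3 and 32.4 in IL-4 PT/LPS (LPS alone, adjusted p = 0.000673). The p65 site 2.6 kb upstream went the other way, with 12.6 and 16.2 in ctrl/ctrl, no peak in IL-4 PT/ctrl, 7.16 and 7.06 in ctrl/LPS, and 6.83 and 7.37 in IL-4 PT/LPS. It was called lower after LPS alone (-2.06 ± 0.21, adjusted p = 0.00161) and had the same sign without centring (-1.01).

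In the 1 hr experiment, IL-4 raised the H3K27Ac signal of Zc3h12a and lowered that of Zfp36l2. Zc3h12a had a summed signal of 1075 and 1012 in ctrl and 1903 and 1950 after IL-4. Zfp36l2 had 866 and 974 in ctrl and 597 and 582 after IL-4. The groups did not overlap for either gene: Zc3h12a rose by 0.89 ± 0.04 (SE, n = 2) on the log2 scale (adjusted p = 0.00107), and Zfp36l2 fell by 0.63 ± 0.07 (adjusted p = 0.00659). Zfp36l1 went from 1671 and 1654 to 1546 and 1579, which was not called (-0.08, adjusted p = 0.137). Of the 3 genes with a region, 2 were called, against 36.2% of all genes. The summed H3K27Ac signal of macrophage markers (5 of 9 with a region) was 3450 and 3591 in ctrl and 4521 and 4560 after IL-4. That of erythroid markers (2 of 3) was 430 and 442 in ctrl and 1146 and 1178 after IL-4, and that of B cell markers (1 of 3) was 850 and 867 in ctrl and 598 and 600.2 after IL-4, from the lower to the higher sample. The part of these markers in the result was not tested.

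The rise at Zc3h12a came from 2 of its 6 regions. A region 4.1 kb upstream was in neither ctrl list and had 577 and 598 after IL-4 (adjusted p = 4.65e-05). The region 11.8 kb downstream went from 593 and 567 to 874 and 881, a rise by 0.65 ± 0.03 (SE) on the log2 scale (adjusted p = 0.000783). The region 16.9 kb upstream, near the place shared by all lists, had 426 and 395 in ctrl and 414 and 427 after IL-4 and was not called.

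At Zfp36l2, 5 of 6 regions were called lower, of which 2 with a peak missing after IL-4 turned to a change of 0.05 with the higher floor. The largest, 46.7 kb downstream, went from 413 and 403 to 294 and 290 (-0.43 ± 0.04, SE, adjusted p = 0.00245), and the region 38.9 kb downstream went from 223 and 236 to 137 and 144 (-0.65 ± 0.06, adjusted p = 0.00279). The region 105.4 kb upstream, inside Thada, went from 112 and 110 to 80.1 and 84.7. At Zfp36l1, the region at the start (0.6 kb downstream) rose from 314 and 330 to 398 and 417 (0.39 ± 0.05, adjusted p = 0.00599), while the largest region, 98.6 kb downstream, fell from 510 and 500 to 415 and 417 (-0.23 ± 0.03, adjusted p = 0.00831). In all, 15 of 27 regions were called, 5 higher and 10 lower, against 43.4% of all regions.

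p300, which acetylates this histone, gained at single sites of 3 of the 4 genes. Because untreated replicate 1 had low scores throughout, values are given for each sample, and the median site was 0.67 higher after IL-4 on the log2 scale before centring. Of 83 sites, 23 were called, 17 higher and 6 lower, against 21% of all sites. Without untreated replicate 1, 20 were called, 15 higher and 5 lower, and 17 of the calls were shared. Without centring 0 of the 83 were called by limma, and the 17 higher sites kept their sign. With the higher floor 4 of the 17 lost their call.

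At Zc3h12a, p300 was called higher at 4 of 13 sites. The site 3.7 kb upstream, below the H3K27Ac region that IL-4 added, scored 29.0 and 68.2 in ctrl and 255 and 254 after IL-4, a rise by 1.85 ± 0.22 (SE) on the log2 scale (adjusted p = 5.2e-08). The intronic site 4.7 kb downstream scored 5.27 and 13.8 in ctrl and 104 and 100 after IL-4 (2.91 ± 0.27, adjusted p = 6.44e-10). The sites 11.3 and 12.9 kb downstream, on each side of the H3K27Ac region that rose, went from 25.3 and 63.9 to 125 and 129 and from 21.3 and 56.9 to 115 and 111. Without untreated replicate 1 all 4 were still called, at changes of 1.99, 2.98, 1.08, and 1.08. The site 17.5 kb upstream had 48.9 and 165 in ctrl and 131 and 144 after IL-4 and was not called.

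**Figure D3:**
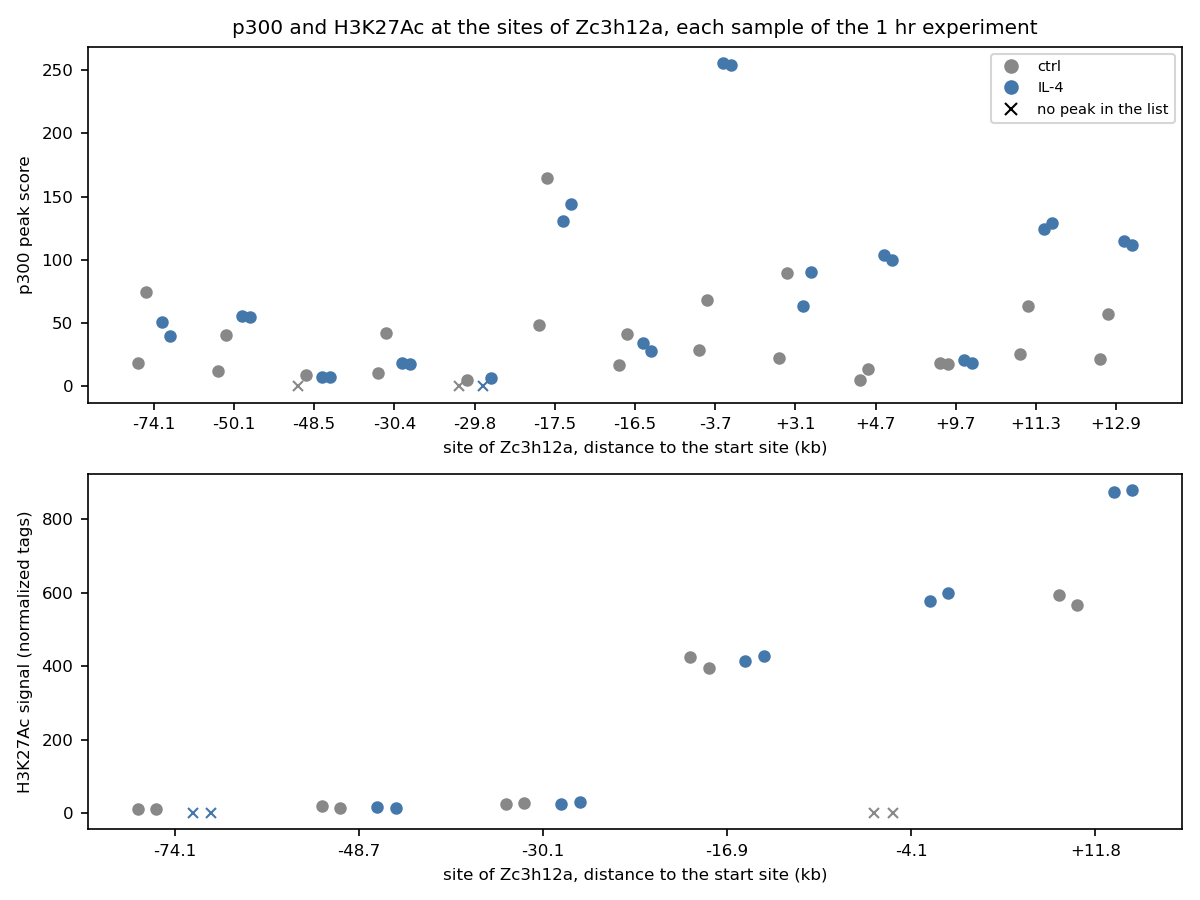
p300 peak score (no unit) and H3K27Ac signal (normalized tags) at each tested site of Zc3h12a in every sample of the 1 hr experiment, placed by distance to the start site in kb and not to scale between sites, with crosses for samples without a peak. The p300 scores 3.7 kb upstream are 29.0 and 68.2 in ctrl and 255 and 254 after IL-4, and the H3K27Ac region 4.1 kb upstream appears in the IL-4 lists alone.

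The place 3.7 to 4.1 kb upstream of Zc3h12a also held other factors after IL-4. RNAPII-pS5 had no peak in ctrl and 7.92 and 7.66 after IL-4, and PU.1 had none in ctrl and 6.77 and 8.27 after IL-4. HDAC2 had 10.9 and 7.07 in ctrl and 26.4 and 16.4 after IL-4, and HDAC3 had 7.19 and no peak in ctrl and 26.2 and 18.6 after IL-4. The labels give the HDAC3 antibody the catalogue number of the H3K27Ac antibody, so from the labels it is uncertain which target the lists labelled HDAC3 hold. The paper's methods text repeats that number for both, while its reagent table gives HDAC3 a number of its own. HDAC1 had 10.6 and no peak in ctrl and 12.3 and 13.0 after IL-4. None of these 5 antibodies was called at this place, which is described here because p300 and H3K27Ac changed there. The scores are uncentred. At the start of Zc3h12a (0.2 kb downstream), the uncentred RNAPII-pS5 scores were 74.2 and 60.7 in ctrl. They were 49.3 and 45.5 after IL-4, and this site was not called either. The summed RNAPII-pS5 score of Zc3h12a changed by -0.17 with centring (limma, adjusted p = 0.484).

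At Zfp36l1, p300 was called higher at 10 and lower at 4 of 45 sites. The site 1.6 kb upstream went from 14.8 and 23.4 to 81.5 and 86.2 (1.5 ± 0.27, SE, adjusted p = 8.47e-05). The site 47.8 kb downstream went from 19.4 and 38.5 to 151 and 163 (1.85 ± 0.23, adjusted p = 1.72e-07), and the site 353.4 kb downstream, inside Rad51b, from 9.52 and 38.5 to 127 and 109 (1.95 ± 0.23, adjusted p = 8.77e-08). The site 98.8 kb downstream, where H3K27Ac fell, had 73.0 and 145 in ctrl and 98.7 and 89.4 after IL-4 and was called lower (-0.80 ± 0.23, adjusted p = 0.00954, and -0.54 without untreated replicate 1, adjusted p = 0.0302). Both IL-4 samples lay between the ctrl samples there.

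At Zfp36l2, p300 was called higher at 3 and lower at 2 of 21 sites. The site 132.8 kb upstream, where p65 was highest in IL-4 PT/LPS, had no p300 peak in ctrl and 107 and 104 after IL-4 (adjusted p = 1.7e-09). The site 0.7 kb upstream, at the promoter, had 36.5 and 98.4 in ctrl and 63.9 and 60.8 after IL-4, and its call as lower (-0.61, adjusted p = 0.0423) had the other sign without centring (0.06). At Zfp36, 0 of 4 p300 sites were called by limma and 0 had an unadjusted p of at most 0.05. Its highest, 2.0 kb upstream, scored 40.4 and 78.9 in ctrl and 75.7 and 78.7 after IL-4.

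Summed over its sites, p300 at Zc3h12a had scores of 232 and 705 in ctrl and 981 and 1006 after IL-4, a rise by 0.45 ± 0.12 (SE) on the log2 scale (adjusted p = 0.0315) that was called in 9 of 13 alternatives. It was the only 1 of 4 genes called, against 20% of all genes. RNAPII-pS2 at Zfp36l2 had 57.2 and 77.1 in ctrl and 96.6 and 110 after IL-4 by the labels (0.72 ± 0.19, adjusted p = 0.0256), called in 5 of 14 alternatives, in the lists whose peak names carry the opposite treatment. That was 1 of 4 genes, against 5.44% of all genes, and leaving out any 1 of the 4 samples ended the call.

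For the other antibodies limma called none of the genes. It called 0 of 4 for RNAPII-pS5 (1.33% of all genes, 0 at an unadjusted p of at most 0.05), 0 of 3 for HDAC1 (0%, 0 unadjusted), 0 of 4 for HDAC2 (0.363%, 0 unadjusted), 0 of 4 for HDAC3 (4.52%, 2 unadjusted), and 0 of 4 for PU.1 (1.75%, 1 unadjusted). By site it called 0 of 35 for RNAPII-pS5 (1.36% of all sites, 9 unadjusted), 0 of 17 for RNAPII-pS2 (2.9%, 4 unadjusted), 0 of 30 for HDAC1 (0%, 2 unadjusted), 0 of 36 for HDAC2 (0.00404%, 6 unadjusted), 0 of 28 for HDAC3 (1.32%, 5 unadjusted), and 0 of 68 for PU.1 (0.0735%, 8 unadjusted). Summed HDAC3 scores were higher after IL-4 at Zc3h12a in both samples (42.1 and 25.8 in ctrl, 88.1 and 61.1 after IL-4), as they were for the median gene, and the change relative to it was 0.74 ± 0.27 (adjusted p = 0.0905). At Zfp36 the summed RNAPII-pS5 scores were 53.0 and 57.3 in ctrl and 58.6 and 63.3 after IL-4. Zfp36 had 1 HDAC1 peak, of 5.11 in ctrl replicate 2, and was not tested for that antibody.

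**Figure D4:**
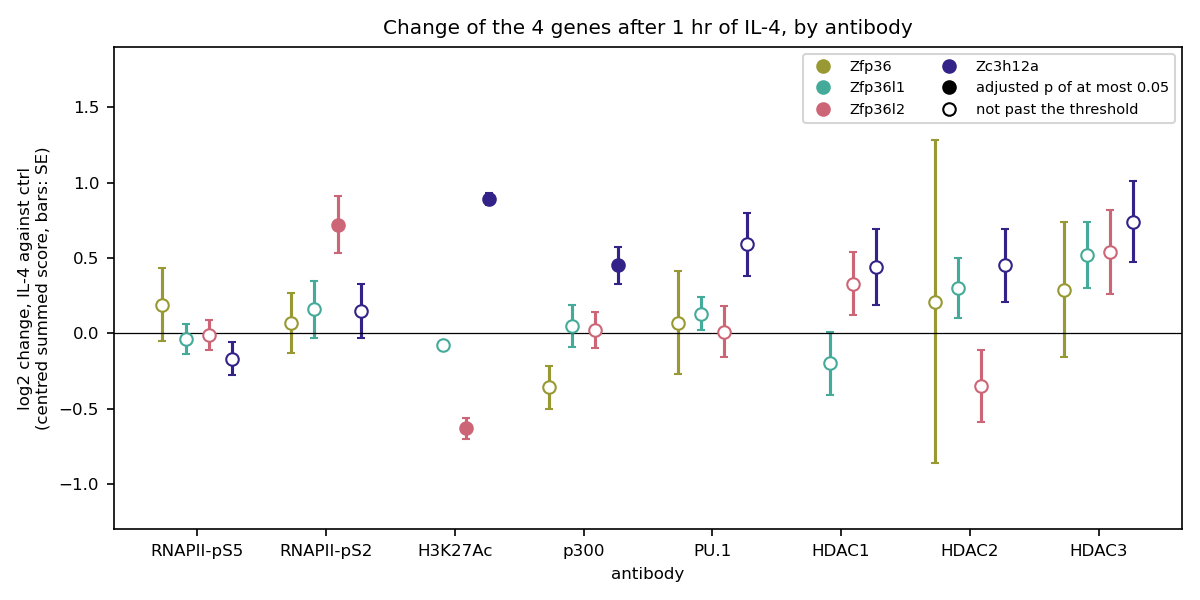
Change after 1 hr of IL-4 in the summed score of each gene (log2, centred on the median gene, bars for SE, n = 2 per group) by antibody, filled where the adjusted p is at most 0.05. The filled points are H3K27Ac at Zc3h12a (0.89) and Zfp36l2 (-0.63), p300 at Zc3h12a (0.45), and RNAPII-pS2 at Zfp36l2 (0.72), and Zfp36 has no H3K27Ac point. The RNAPII-pS2 points follow the labels, and their sign would turn if the peak identifiers are right.

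The sequences of 5 of these places are printed below, from the RefSeq copy of GRCm38.p6 (the assembly of mm10), as the 300 bp at the centre of the strongest peak on the plus strand. They are, among the p300 sites called higher, the site with the highest score after IL-4 at Zc3h12a, Zfp36l1, and Zfp36l2 and the site with the largest change (4.7 kb downstream of Zc3h12a), and the Zc3h12a p65 site that was lower in pretreated cells. All 4 genes lie on the minus strand. Capitals mark letters of the STAT6 motif (TTCNNNNGAA), the AP-1 motif (TGANTCA), and the NF-κB motif, searched on both strands.
Zc3h12a, p300, 3.7 kb upstream, chr4:125131474-125131773: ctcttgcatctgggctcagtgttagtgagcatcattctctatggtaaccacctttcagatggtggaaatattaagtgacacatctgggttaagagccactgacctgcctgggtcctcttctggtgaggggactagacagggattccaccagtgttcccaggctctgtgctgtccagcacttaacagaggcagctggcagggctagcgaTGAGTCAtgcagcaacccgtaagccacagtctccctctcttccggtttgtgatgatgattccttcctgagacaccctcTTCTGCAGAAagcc
Zc3h12a, p300, 4.7 kb downstream, chr4:125122999-125123298: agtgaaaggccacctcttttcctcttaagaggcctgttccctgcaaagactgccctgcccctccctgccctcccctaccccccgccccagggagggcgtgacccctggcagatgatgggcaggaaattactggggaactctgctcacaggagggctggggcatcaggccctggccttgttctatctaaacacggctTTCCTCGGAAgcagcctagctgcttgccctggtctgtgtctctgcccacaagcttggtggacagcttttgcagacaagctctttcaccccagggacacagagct
Zfp36l1, p300, 47.8 kb downstream, chr12:80065111-80065410: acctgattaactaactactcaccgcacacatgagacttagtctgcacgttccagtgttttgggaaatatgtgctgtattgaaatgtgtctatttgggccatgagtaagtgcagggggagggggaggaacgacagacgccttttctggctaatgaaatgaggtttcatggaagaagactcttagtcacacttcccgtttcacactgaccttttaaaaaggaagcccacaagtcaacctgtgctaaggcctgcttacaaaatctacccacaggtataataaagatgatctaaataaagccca
Zfp36l2, p300, 132.8 kb upstream, chr17:84320610-84320909: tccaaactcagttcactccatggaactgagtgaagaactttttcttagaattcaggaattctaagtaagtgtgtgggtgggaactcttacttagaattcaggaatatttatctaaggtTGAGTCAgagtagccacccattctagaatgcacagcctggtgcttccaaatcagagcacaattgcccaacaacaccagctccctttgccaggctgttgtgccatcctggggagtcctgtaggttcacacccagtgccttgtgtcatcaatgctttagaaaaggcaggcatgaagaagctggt
Zc3h12a, p65, 3.0 kb downstream, chr4:125124703-125125002: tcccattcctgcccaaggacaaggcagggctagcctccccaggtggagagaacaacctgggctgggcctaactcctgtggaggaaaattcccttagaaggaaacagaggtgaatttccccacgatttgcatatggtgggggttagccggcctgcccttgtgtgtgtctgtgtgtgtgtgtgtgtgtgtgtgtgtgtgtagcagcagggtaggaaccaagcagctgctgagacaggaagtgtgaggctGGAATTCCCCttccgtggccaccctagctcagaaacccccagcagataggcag

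Both Zc3h12a p300 sites hold a STAT6 motif, the factor that IL-4 activates, and the Zc3h12a p65 site holds an NF-κB motif. The Zfp36l1 site and the Zfp36l2 site hold neither in the form searched, and the Zfp36l2 site holds an AP-1 motif. For STAT6 only the form TTCNNNNGAA was searched, so TTC and GAA at another spacing were not counted. Of the p300 sites called higher after IL-4, 6 of 17 held a STAT6 motif (3 of 4 at Zc3h12a, 3 of 10 at Zfp36l1, and 0 of 3 at Zfp36l2), beside 45.7% of all p300 sites called higher. Of those called lower 0 of 6 held it, beside 2.6% of all such sites. Over all 83 p300 sites of the genes the share was 12.0%, beside 13.3% of all p300 sites.

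The NF-κB motif was in 11 of the 50 p65 sites (22.0%, beside 16.7% of all p65 sites) and the AP-1 motif in 17 (34%, beside 27.9%). The PU.1 motif (GAGGAA) was in 21 (42.0%, beside 44.7%), and the CArG motif, bound by serum response factor, in 1 (2.0%, beside 1.8%). These shares are a description of the letters, and no binding of STAT6 or AP-1 was measured in the lists used here.

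Among the 5015 genes with an RNAPII-pS5 peak in all 8 pretreatment samples, those most like each member were named by Pearson's r of the centred summed score over the 8 samples, which share libraries and centring. Most like Zfp36 were Igsf6 (r = 0.983), 4933405E24Rik (0.98), and Isg20 (0.978). Most like Zfp36l1 were Akirin2 (0.985), D2hgdh (0.981), and Dpp9 (0.977), and most like Zfp36l2 were Rnpepl1 (0.987), 1810026B05Rik (0.986), and Ctsd (0.985). Ptpro (0.982), Snhg5 (0.970), and R3hcc1l (0.961) were most like Zc3h12a. Between the members, r was 0.848 for Zfp36l1 with Zfp36l2, -0.921 for Zfp36 with Zfp36l1, and -0.813 for Zfp36 with Zfp36l2. For Zc3h12a it was 0.28 with Zfp36, -0.443 with Zfp36l1, and -0.674 with Zfp36l2.

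Most genes on a list of 19 cytokine and feedback genes, whose mRNAs are known targets of such proteins, were called higher at RNAPII-pS5 after LPS alone. The list was chosen with earlier results of these data known, so its counts are a description and not a test of targets at large. Of 19 target genes, 16 were called higher and 1 lower, with a median change of 1.40 on the log2 scale beside -0.34 over all genes tested, of which 10.4% were called higher and 18% lower. Il12b, a subunit of interleukin 12, went from 21.7 and 20.9 in ctrl/ctrl to 63.6 and 74.1 in ctrl/LPS (2.01 ± 0.17, SE, adjusted p = 0.00175), and had 42.0 and 43.1 in IL-4 PT/LPS. The chemokine gene Cxcl1 went from 17.9 and 19.2 to 62.1 and 51.7 (1.93 ± 0.21, adjusted p = 0.0027), with 44.2 and 46.2 in IL-4 PT/LPS. Cxcl3 had no peak in ctrl/ctrl, 23.1 and 27.1 in ctrl/LPS, and higher scores of 31.3 and 31.4 in IL-4 PT/LPS. Tfrc, the transferrin receptor, was the target called lower, from 36.1 and 24.9 to 7.5 and 7.6, with 15.8 and 28.4 in IL-4 PT/LPS. Between IL-4 PT/LPS and ctrl/LPS, 1 target was called higher and 3 lower, with a median of -0.40 beside 0.01 over all genes, of which 6.88% were called higher and 5.38% lower. At RNAPII-pS2 the same comparison called 3 targets higher and 1 lower, with a median of -0.05 beside -0.03 over all genes. Of all genes, 6.73% were called higher and 4.74% lower there.

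The CCR4-NOT list also holds deadenylase genes outside that complex, such as Pan3. Of its 14 genes tested, 3 were called higher after LPS alone (Btg1, Btg2, and Tob1, adaptors of the deadenylase). The 3 called lower were Cnot11, Cnot8, and Pan3, and the median was -0.52, beside -0.34 over all genes tested. Of all genes, 10.4% were called higher and 18% lower. Btg1 went from 141 and 132 to 198 and 224. In the decapping list, 2 of 13 were higher (Dcp2, the decapping enzyme, and Dcp1a) and 2 lower (Upf1 and Xrn1), with a median of 0.55. Of the RNA exosome 0 of 11 were higher and 1 lower (Exosc2), with a median of -0.98. Dcp2 had 6.9 and 4.8 in ctrl/ctrl and 14.7 and 20.5 in ctrl/LPS.

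Among 12 other mRNA-binding proteins tested, 2 were higher, including Zc3h12c, and 2 lower (Rc3h2 and Pum2), with a median of 0.03. Over all genes, 10.4% were higher and 18% lower, with a median of -0.34. Zc3h12c, a relative of Zc3h12a, had 10.3 and 6.9 in ctrl/ctrl, 71.5 and 67.0 in IL-4 PT/ctrl, 75.1 and 51.8 in ctrl/LPS, and 74.2 and 90.4 in IL-4 PT/LPS, so that ctrl/ctrl was below all other samples. It rose by 3.21 ± 0.26 (SE) on the log2 scale after LPS alone (adjusted p = 0.00175). Of 9 kinases and phosphatases that act on the members, 2 were higher (Dusp1, a phosphatase of p38, and Tbk1) and 0 lower, with a median of 0.18. Dusp1 went from 50.3 and 38.3 to 58.4 and 54.2 (0.68 ± 0.16, adjusted p = 0.0213).

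**Figure D5:**
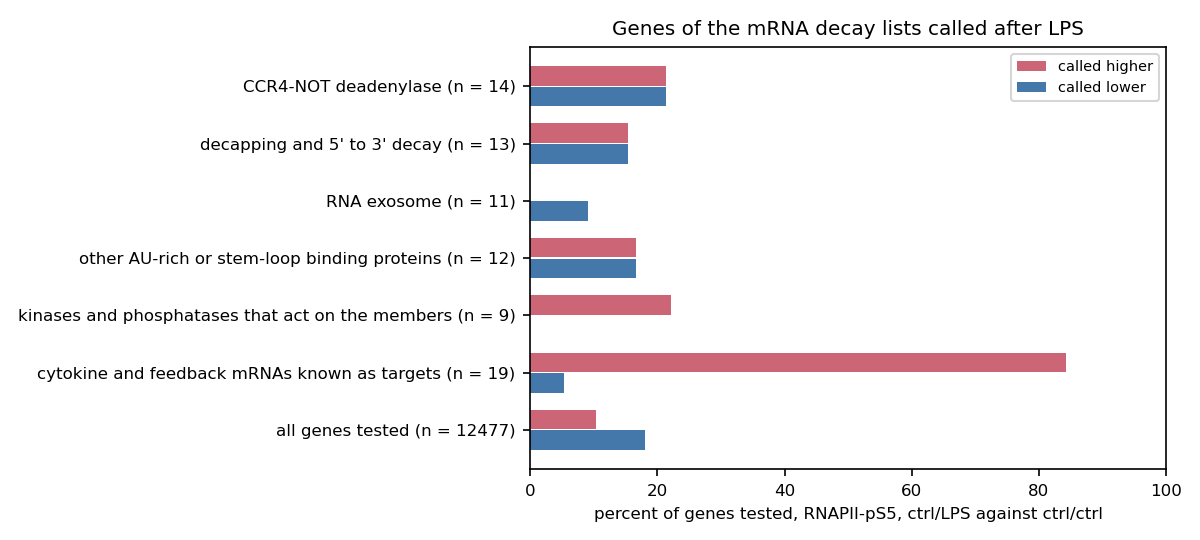
Share of the genes tested in each mRNA decay list (percent) called higher or lower for RNAPII-pS5 between ctrl/LPS and ctrl/ctrl, with all genes tested in the last pair of bars. The target list has 16 of 19 genes called higher, and all genes tested have 10.4% higher and 18% lower.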

How the data were processed

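The data are ChIP-seq peak lists of 56 samples, 2 for each of 28 groups. Per the labels and the submitters' processing notes, the authors aligned reads with BWA 0.7.10 to mm10, handled them with SAMtools 0.1.19, called peaks in each sample with MACS2 2.0.10 or, for H3K27Ac, HOMER 4.2, and named each peak with HOMER after the nearest start site. The deposited peak scores are −log10 p- or q-values (which of them is not given in the sources used here), and such scores rise with depth, which is unknown. For H3K27Ac the deposited values are a signal, tags normalized by the authors to the library.

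The members and gene lists were chosen with earlier results of these data known. Peak scores were summed per gene, missing genes took the lowest score of that antibody (the floor, raised 4 times as an alternative), and log2 values were centred on the median of genes with a peak in every sample. Features with a peak in at least 2 samples were tested with limma 3.58.1 (trended variance, R 4.3.3), with Benjamini-Hochberg adjustment over all of them and a call at an adjusted p of at most 0.05. Merged peaks (sites, with their highest score) were tested in the same way. A call was counted only where a sample of the groups compared had a peak, a rule chosen after seeing the data. Labels do not say whether replicates came from separate cultures or animals, so p-values measure only the spread between samples. The steps were tested on simulated data. The 3 genes most like each member, and of each list up to 3 genes called higher and 3 called lower with the smallest adjusted p, were named. A gene that this rule names and a sequence are not reported here. Motifs were searched in 300 bp around the strongest peak of a site. Sites were named where their score was among the 10 highest of a gene and antibody or where they were called, and the text gives those that bear on a result. Alternatives were no centring, quantile normalization, other filters and sums, a replicate block, and leaving out each sample.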

Additional observations from a re-analysis of the deposited data

Results flagged for a closer look

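At 24 sites the LPS change (log2 scale) differed with IL-4 pretreatment by limma's test of the difference itself, and the values below are the change in pretreated cells minus the change in other cells. Most of these sites lacked a peak in at least 1 group, where the floor stood in for the score. With the floor 4 times as high, 3 of the 24 kept their call and 21 lost it. Those kept were RNAPII-pS2 at Zfp36l1 208.6 kb downstream and p65 at Zfp36l1 2.6 kb upstream and Zfp36l2 103.5 kb upstream. The same test called 17.7% (RNAPII-pS5) to 23.3% (p65) of all sites.

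For RNAPII-pS2 there were 10. The difference was -4.39 at the Zc3h12a site 3.8 kb upstream, which had a peak with pretreatment alone (4.98 and 6.52) and with LPS alone (8.82 and 5.78) and none with both or neither. It was 1.31 at the Zfp36 site 3.9 kb upstream. At Zfp36l1 it was 2.41 at 1.4 kb upstream, -2.70 at 47.7 kb downstream, 4.0 at 208.6 kb downstream (peaks of 27.3 and 17.8 in IL-4 PT/LPS alone), -2.82 at 368.7 kb downstream, and 2.58 at 386.6 kb downstream. At Zfp36l2 it was -3.09 at 87.2 kb upstream, -2.00 at 38.9 kb upstream, and -2.59 at 38.9 kb downstream.

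For RNAPII-pS5 there were 8. The difference was -0.95 at the Zfp36 gene body, 2.0 kb downstream, the only site of the 8 with a peak in all 8 samples. It compares the higher of 2 separate peaks in ctrl/ctrl with 1 unbroken peak elsewhere, its adjusted p was 0.0836 with the higher floor, and the summed score of Zfp36 gave -0.11 (adjusted p = 0.779). The difference was -1.73 at the Zc3h12a site 50.0 kb upstream, and -2.72 and -2.06 at the Zfp36l1 sites 248.6 and 387.8 kb downstream. At Zfp36l2 it was 2.21 at 133.0 kb upstream, 2.40 at 105.4 kb upstream, 1.47 at 80.0 kb upstream, and -4.01 at 38.9 kb downstream, where both groups with a single agent had a peak (4.29 to 6.50) and the others had none.

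For p65 there were 6. The difference was 4.08 at the Zfp36l2 site 103.5 kb upstream and 2.18 at the site 15.2 kb upstream, both with a peak in IL-4 PT/LPS alone. It was 2.76 at the Zc3h12a site 50.2 kb upstream and -1.86 at the site 11.2 kb downstream. At Zfp36l1 it was 2.98 at 2.6 kb upstream and 2.17 at 1.6 kb upstream.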

How the results depend on the processing

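At the called sites, 163 values in all, a floor for missing peaks 4 times as high left 78 past the threshold in the same direction, 67 below it, and 18 with the other sign, and no centring left 129, 30, and 4. An overlap of at least 100 bp kept all 163, and admitting any gene listed in 1 or more samples kept all 82 gene values on their side of the threshold. Leaving out 1 sample kept the call in 785 cases and ended it in 279. The depth is unknown, so a missing peak is one not listed, and the cause of the changes below was not tested.

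With the higher floor, 1 gene was called for RNAPII-pS2 with pretreatment alone. Called sites numbered 1 for HDAC3, 2 for RNAPII-pS2 at 1 hr, 1 for RNAPII-pS5 at 1 hr, 4 and 1 for RNAPII-pS2 with pretreatment alone and for the difference between LPS changes, 1, 6, and 0 for RNAPII-pS5 with pretreatment alone, between the LPS groups, and for the difference, and 3 for p65 with pretreatment alone. Sites of the other sign were 4 of H3K27Ac (0.05 each, at Zfp36l1 and Zfp36l2), Zfp36 3.9 kb upstream (0.05) and Zfp36l2 38.9 kb upstream (0.0) of RNAPII-pS2, and for RNAPII-pS5 Zfp36l2 80.0 kb upstream (0.18 after LPS, -0.17 for the difference) and 3 sites with pretreatment alone (-0.02 each). For p65 after LPS they were -0.12 at Zfp36l1 315.8 kb downstream, -0.16, -0.25, and -0.28 at Zfp36l2, and -0.89 and -0.25 at Zc3h12a 12.9 and 11.2 kb downstream, with 0.03 at the last for the difference.

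Without centring, the genes called were 0 for RNAPII-pS2 at 1 hr, 0 for p300, 2 for RNAPII-pS2 after LPS, and 4, 2, and 3 for p65 after LPS, between the LPS groups, and for the difference. The sites called were 0 for p300 and 13 for the p65 difference. p65 after LPS was 1.01 at Zc3h12a, 1.06 at Zfp36, and 1.26 at Zfp36l2, with 0.0 and 0.37 at Zc3h12a sites, and p300 was 0.04 and 0.06 at 2 sites. Quantile normalization called 1 gene for RNAPII-pS2 after LPS and 0 for RNAPII-pS5 with pretreatment alone.

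With the highest score in place of the sum, the genes called were 0 for RNAPII-pS2 at 1 hr, 2 for RNAPII-pS2 after LPS (0.81 at Zfp36), 1 with pretreatment alone, 0, 1, and 1 for RNAPII-pS5 with pretreatment alone, between the LPS groups, and for the difference, and 1 for each of the 3 p65 comparisons other than LPS alone. Genes with a peak in every sample gave 1 and 2 for RNAPII-pS2 after LPS and with pretreatment alone, and 1 for RNAPII-pS5 between the LPS groups. Without intergenic peaks the counts were 0 for H3K27Ac, 1 for HDAC3, 0 for RNAPII-pS2 at 1 hr, 0 for p300, 1 for RNAPII-pS2 with pretreatment (-2.17 at Zc3h12a), 0 and 1 for RNAPII-pS5 with pretreatment and for the difference, and 2 and 2 for p65 after LPS and with pretreatment (1.06 at Zfp36l1). With peaks within 1000 bp of the start site they were 1 for H3K27Ac (0.26 at Zfp36l1), 0 for RNAPII-pS2 at 1 hr, 0 for p300, 0, 0, and 1 for RNAPII-pS5 between the LPS groups, for LPS in pretreated cells, and for the difference, and 0 for p65 after LPS. Zfp36 RNAPII-pS5 was then -3.4 after LPS, -0.16 in pretreated cells, and 3.24 for the difference, since its start peak is listed apart in ctrl/ctrl alone.

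At an unadjusted p of at most 0.05, the genes called were 2 for HDAC3, 1 for PU.1, 2 for p300, 1 and 2 for RNAPII-pS2 after LPS and with pretreatment, 2 and 1 for RNAPII-pS5 with pretreatment and for the difference, and 1 and 1 for p65 with pretreatment and between the LPS groups. With only the peaks above each list's median score, they were 0 for RNAPII-pS2 at 1 hr, 1 for RNAPII-pS2 after LPS, 0, 1, and 1 for RNAPII-pS5 with pretreatment, between the LPS groups, and for the difference, and 0 for p65 after LPS. Sites called were then 8 for H3K27Ac, 1 for RNAPII-pS2 and 2 for RNAPII-pS5 at 1 hr, 15 for p300, 10, 6, 4, and 6 for the 4 RNAPII-pS2 comparisons, 7, 2, and 3 for RNAPII-pS5 after LPS, with pretreatment, and for the difference, and 12 for p65 after LPS, with 1.33 at Zc3h12a 11.2 kb downstream for the p65 difference.

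With a replicate block, genes called were 1 for PU.1 and 0 and 0 for RNAPII-pS5 with pretreatment and between the LPS groups, and 3 p65 sites were called with pretreatment alone. Same-numbered samples correlated between -0.027 and 0.066, so the numbers were not taken as pairing, and no other count moved by over 1.5 times.

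Leaving out 1 sample at a time, the genes called ranged from 0 to 1 for HDAC3, 0 to 1 for PU.1, 0 to 0 for RNAPII-pS2 at 1 hr, 0 to 2 for p300, 0 to 1 for RNAPII-pS2 after LPS and with pretreatment, 0 to 0 for RNAPII-pS5 with pretreatment and between the LPS groups, and 0 to 1 for p65 after LPS. Sites ranged from 9 to 11 for H3K27Ac, 0 to 1 for HDAC1, HDAC3, and RNAPII-pS2 at 1 hr, 0 to 2 for RNAPII-pS5 at 1 hr, and 9 to 30 for p300. They ranged from 13 to 17, 8 to 11, 4 to 11, and 2 to 9 for RNAPII-pS2 (after LPS, with pretreatment, between the LPS groups, difference), from 6 to 13, 3 to 10, 0 to 5, and 0 to 6 for RNAPII-pS5, and from 14 to 20, 1 to 8, 1 to 12, and 0 to 9 for p65.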
